A study of Saccharomyces cerevisiae with 16 samples.

Results

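The general stress genes of budding yeast (Saccharomyces cerevisiae) described here are 37 genes known as targets of the transcription factors Msn2 and Msn4. They were listed by name and matched to array probes through their systematic names. They make up 37 of the 6227 genes on the array. All 37 had a probe, 1 each, and every one of these probes lay well above background on 16 of 16 arrays, so all 37 were among the 6165 genes tested.

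Msn2 and Msn4 are zinc finger proteins that bind stress response elements in the promoters of these genes. Protein kinase A keeps both factors out of the nucleus while cells grow fast, and they enter it when the kinase is less active or when cells meet heat, oxidants, starvation or high osmolarity. Hog1, the mitogen-activated protein kinase of the high osmolarity pathway, acts on part of the same genes during osmotic stress, of which the catalase gene CTT1 is the classic example.

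Total RNA was measured on 16 single-colour Agilent arrays, 1 for each of 4 lines at 0, 45, 90 and 150 min after methionine was removed. Lines WT, H and 170 carried HOG1 behind the MET3 promoter in hog1∆ cells; methionine shuts this promoter off, and taking methionine away turns it on. The fourth line, vec, held an empty plasmid in cells that the series record names JBY13. Line WT had wild-type HOG1. The record lists the variants D170A and D170A+F318L as well, but the label fields of lines H and 170 contradict each other on which line holds which variant, so both lines are named here by their titles alone. All 4 lines share the switch to medium without methionine, and no array came from a culture left in methionine, so time, handling and methionine removal cannot be told apart. With 1 array per line and time, errors and p-values describe how steady a difference was over 3 later times, or over 4 lines, and not the spread between cultures.

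Arrays whose file headers carry 1 scan date were taken to share a slide. By this rule lines WT and H lay on 1 slide and lines 170 and vec on the other. Slide, or scan, and line cannot be told apart in WT minus vec, H minus vec, 170 minus WT and H minus 170. Levels are given as log2 signal above or below the 75th percentile of the same array. The level of HOG1, a check of the labels, was 1.90 in line WT, 1.65 in line H and 1.51 in line 170 before removal (0 min), against -1.67 in vec, and 5.64, 5.54 and 6.12 at 45 min, against -2.31 in vec. HOG1 RNA in the 3 HOG1 lines was thus above that in vec before methionine was removed. The HOG1 probe was well above background on all 16 arrays, those of vec included. The series record does not say whether JBY13 itself lacks HOG1, so vec cannot be taken as a line without HOG1. MET3 itself stood between -2.84 and -2.48 on the arrays at 0 min and between 1.32 and 3.21 on the later ones. Of 6 marker genes of a cells, 5, 6 and 6 were lower than in vec in lines WT, H and 170 after removal (12.6%, 24.5% and 16.2% of all genes). The medians were -1.17, -1.58 and -1.46 on the log2 scale. Each of the 6 lay below vec in all 3 HOG1 lines at 0 min too, on 1 array per line. AGA2, for example, stood there at -0.89, -2.27 and -1.60, against 2.03 in vec. All 6 were well above background on all arrays, and their part in the differences from vec was not tested. RNA is from bulk cultures, where fewer cells that express a gene and less RNA per cell cannot be told apart.

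After methionine removal the general stress genes fell together. In the mean of 45, 90 and 150 min minus 0 min, fitted over all 4 lines, 33 of the 37 genes fell and 0 rose, with a median log2 difference of -1.84, against -0.11 over all genes tested (limma, Benjamini-Hochberg over all genes, adjusted p under 0.05; 0 members were higher at an unadjusted p under 0.05). Over all genes 44.3% fell and 34.8% rose in this comparison. Every array after removal lay below every array at 0 min for 21 of the 37 genes, against 22.0% of all genes. The largest falls were those of RGI1 (-3.93 ± 0.38 SE, adjusted p = 9.6e-07), a gene of energy metabolism in respiring cells, HSP30 (-3.60 ± 0.21, adjusted p = 1.4e-08), whose product restrains the plasma membrane proton pump, PHM8 (-3.37 ± 0.12, adjusted p = 1.8e-09), a phosphatase gene, and CYC7 (-3.35 ± 0.24, adjusted p = 8.3e-08), the cytochrome c isoform of poorly aerated cells.

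**Figure D1:**
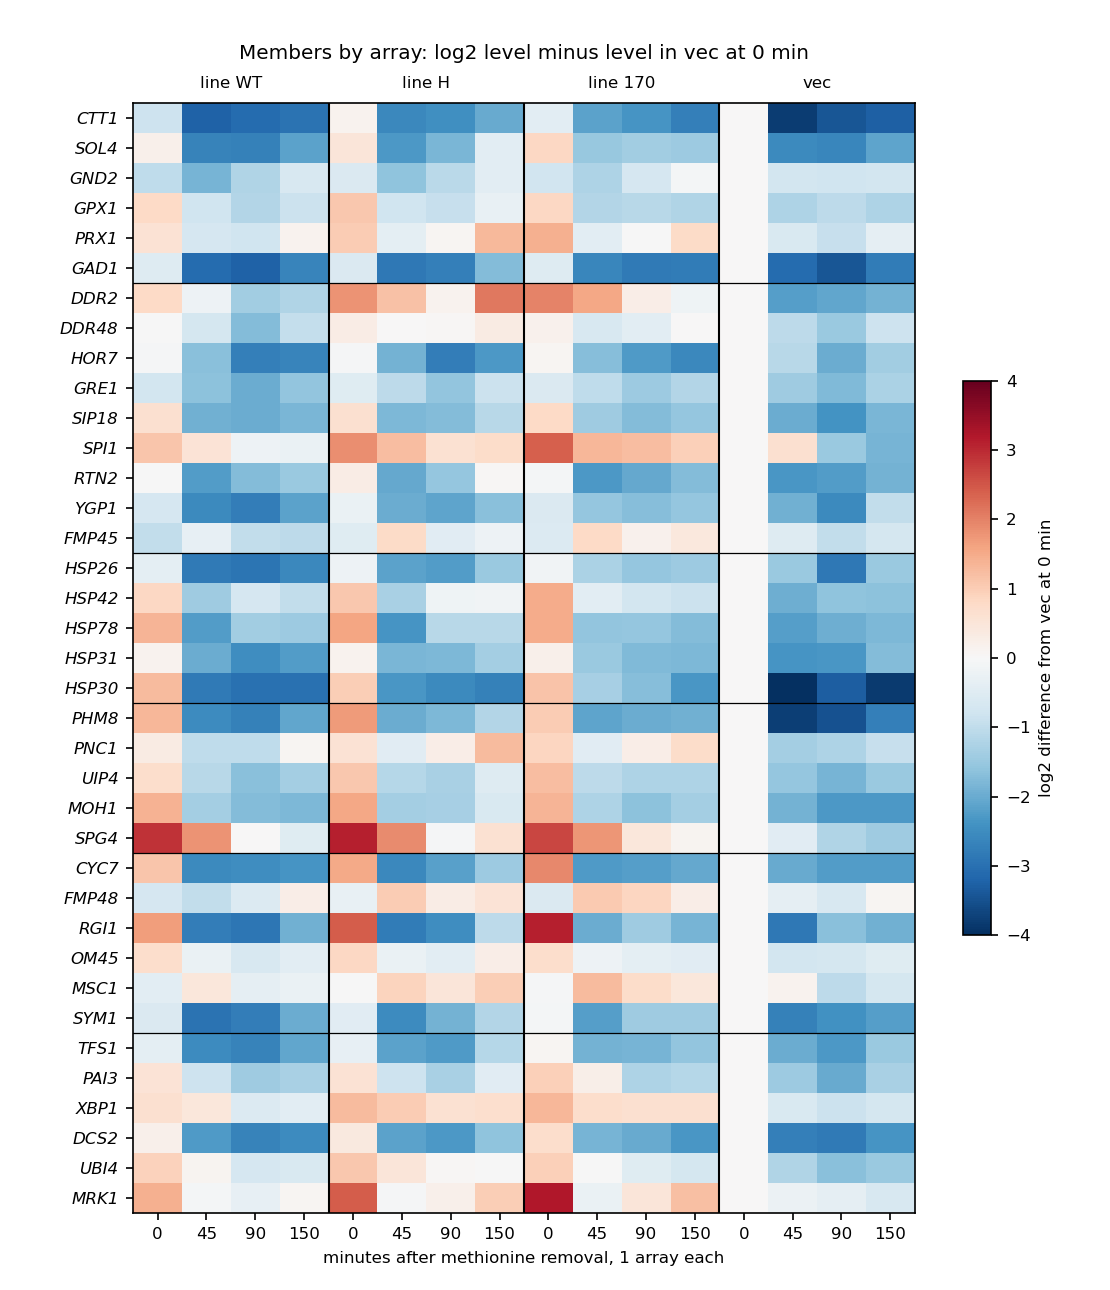
Colour gives the log2 level of each of the 37 genes (rows, grouped by role) on each of the 16 arrays (columns, by line and minutes after removal), minus its level in vec at 0 min. Most rows turn blue after 0 min in all 4 lines, deepest in vec for DDR2, HSP30 and PHM8, while SPG4, RGI1 and MRK1 start red in the 3 HOG1 lines.

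The fall was also there in the line with no introduced HOG1 gene: all 37 genes lay below their 0 min level in the vec mean of the later times, with a median change of -1.72 and a range of -3.80 to -0.30. The median changes were -1.86 in line WT, -1.64 in line H and -1.89 in line 170, each with 33 or 34 genes below 0. Most of the fall was there at the first sample, with median changes from 0 to 45 min of -1.82 in line WT, -1.89 in line H, -1.77 in line 170 and -1.54 in vec. The 4 genes that did not pass were FMP48 (0.54 ± 0.28), GND2 (-0.32 ± 0.16), MSC1 (0.37 ± 0.20) and FMP45 (0.25 ± 0.21). Without the vec arrays FMP48 (0.82), MSC1 (0.67) and FMP45 (0.57) passed as higher. With each array set on its median in place of its 75th percentile, the median of all genes moved to 0.00 and 2 members passed as higher, FMP48 and MSC1, beside the 33 lower.

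All 5 chaperone and folding genes fell. HSP78, the mitochondrial disaggregase, stood at 2.48, 2.70, 2.59 and 1.12 at 0 min in lines WT, H, 170 and vec, and ran from -1.23 to 0.01 on the 12 later arrays (-2.81 ± 0.20, adjusted p = 6.9e-08). HSP26, a small heat shock protein gene, ran from 0.81 to 1.21 at 0 min and from -1.70 to -0.07 later (-1.84 ± 0.19, adjusted p = 2.4e-06). Neither gene's later arrays overlapped those at 0 min. The other small heat shock gene HSP42 (-1.84), the DJ-1 family gene HSP31 (-2.06) and HSP30 passed in the same direction.

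Of the 6 genes of peroxide and redox defence, 5 fell. CTT1, cytosolic catalase T, stood at 0.03, 1.02, 0.46 and 0.87 at 0 min in lines WT, H, 170 and vec, and at -2.36, -1.71, -1.26 and -2.93 at 45 min (fit over the lines -2.56 ± 0.21, adjusted p = 2.1e-07). The glutamate decarboxylase gene GAD1 (-2.42), the 6-phosphogluconolactonase gene SOL4 (-2.36), the glutathione peroxidase gene GPX1 (-1.66) and the mitochondrial peroxiredoxin gene PRX1 (-0.92) fell as well. GND2, the minor isozyme of 6-phosphogluconate dehydrogenase, is the member of this group that did not pass.

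Among 9 genes of hydrophilins, small membrane proteins and surface proteins, 8 fell. DDR2, a small stress protein gene, stood at -0.30, 0.72, 0.89 and -1.09 at 0 min in lines WT, H, 170 and vec (later minus 0, -1.47 ± 0.33, adjusted p = 0.0012). Its later arrays ran from -2.48 to -1.30 in line WT, from -0.95 to 1.01 in line H, from -1.26 to 0.45 in line 170 and from -3.29 to -2.99 in vec, so only those of line H reached above their own 0 min array. SPI1, a cell wall protein gene of the stationary phase, fell by 1.05 ± 0.23 on the log2 scale (adjusted p = 0.0010); the call was lost in the fit to the slide of vec and 170 alone, where the changes were -1.23 in line 170 and -0.90 in vec. SIP18 (-2.30) and GRE1 (-0.96), a pair of hydrophilin genes, HOR7 (-2.08), the paralog of DDR2, the reticulon gene RTN2 (-1.84), the glycoprotein gene YGP1 (-1.57) and DDR48 (-0.73) fell, and FMP45, an eisosome protein gene, is the exception.

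All 6 genes of proteolysis, protein turnover and signalling fell, from DCS2 (-2.62), which encodes an inhibitor of the scavenger decapping enzyme, through TFS1 (-1.83), MRK1 (-1.68), PAI3 (-1.61) and the polyubiquitin gene UBI4 (-1.26) to the repressor gene XBP1 (-0.67). All 5 genes of nucleotide and NAD metabolism or of little known function fell too: PHM8, MOH1 (-2.65), UIP4 (-2.05), SPG4 (-1.92) and the nicotinamidase gene PNC1 (-0.76). Of 6 mitochondrial genes, 4 fell (RGI1, CYC7, SYM1 at -1.86 and OM45 at -0.96), and FMP48 and MSC1 did not pass.

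**Figure D2:**
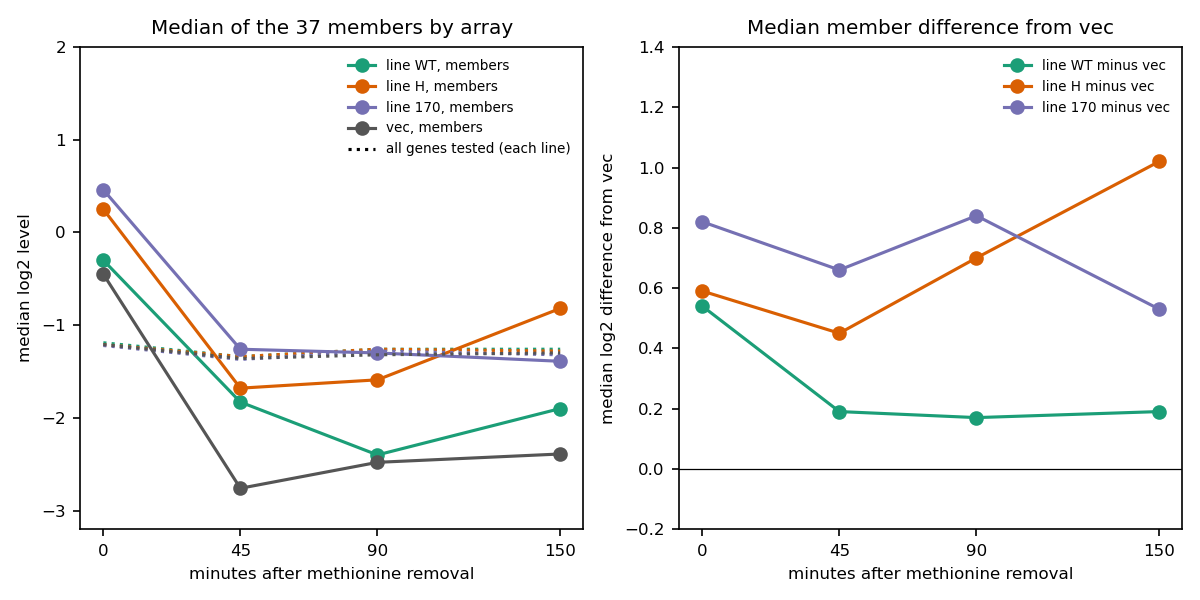
Left, the median log2 level of the 37 genes on each array (points, solid lines) and of all genes tested (dotted) against minutes after removal; right, the median over the 37 genes of the log2 difference from vec at the same time, with no error because each point rests on 1 array per line. The member medians fall between 0 and 45 min in all 4 lines, and the median difference from vec is above 0 at all 4 times, 0 min included.

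Between 45 and 150 min the genes went several ways. In 150 minus 45 min over the 4 lines, 8 members were higher and 4 lower, against 23.7% and 19.7% of all genes, which puts the members' counts near the background. PNC1 (1.11 ± 0.21, adjusted p = 0.0013), PRX1 (0.98 ± 0.20, adjusted p = 0.0022) and RTN2 (0.97 ± 0.23, adjusted p = 0.0059) rose most, and SPG4 (-1.54 ± 0.28, adjusted p = 0.0011) and SPI1 (-1.05 ± 0.28, adjusted p = 0.010) fell most. HOR7 (-0.63) and UBI4 (-0.56) were lower as well, while SYM1 (0.90), GND2 (0.89), SOL4 (0.72), PHM8 (0.61) and TFS1 (0.57) were higher. The step differed by line in its values: 29 of the 37 genes were higher at 150 than at 45 min in line H (median 0.63), against 20 in line WT (median 0.11), 12 in line 170 (median -0.15) and 27 in vec (median 0.22). CTT1, HSP26, HSP78 and DDR2 did not pass. On the slide of WT and H alone 15 members were higher and 6 lower (26.0% of all genes higher). On that of vec and 170 alone 0 and 0 members passed, as did 0 and 0 of all genes, so that fit says nothing about the members. Without vec the counts were 12 and 7, without WT 7 and 2, and under quantile normalization 7 and 6 (31.8%, 12.6% and 19.2% of all genes higher).

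The next question was which of these genes stood higher with an introduced HOG1 than with the empty plasmid once the promoter was on, over the 3 later times with a term for time. Lines H and 170 each held most of the general stress genes above vec, and line WT held few. In H minus vec 26 members were higher and 1 lower, with a median of 0.77 against -0.01 over all genes; 25.1% of all genes were higher and 24.5% lower. In 170 minus vec, which lies within a slide, 21 members were higher and 1 lower, with a median of 0.74 against -0.03; 16.1% of all genes were higher and 16.2% lower. In WT minus vec 5 members were higher and 4 lower, with a median of 0.20 against 0.03; 17.0% of all genes were higher and 12.6% lower, so the count of higher members in line WT was near the background.

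**Figure D3:**
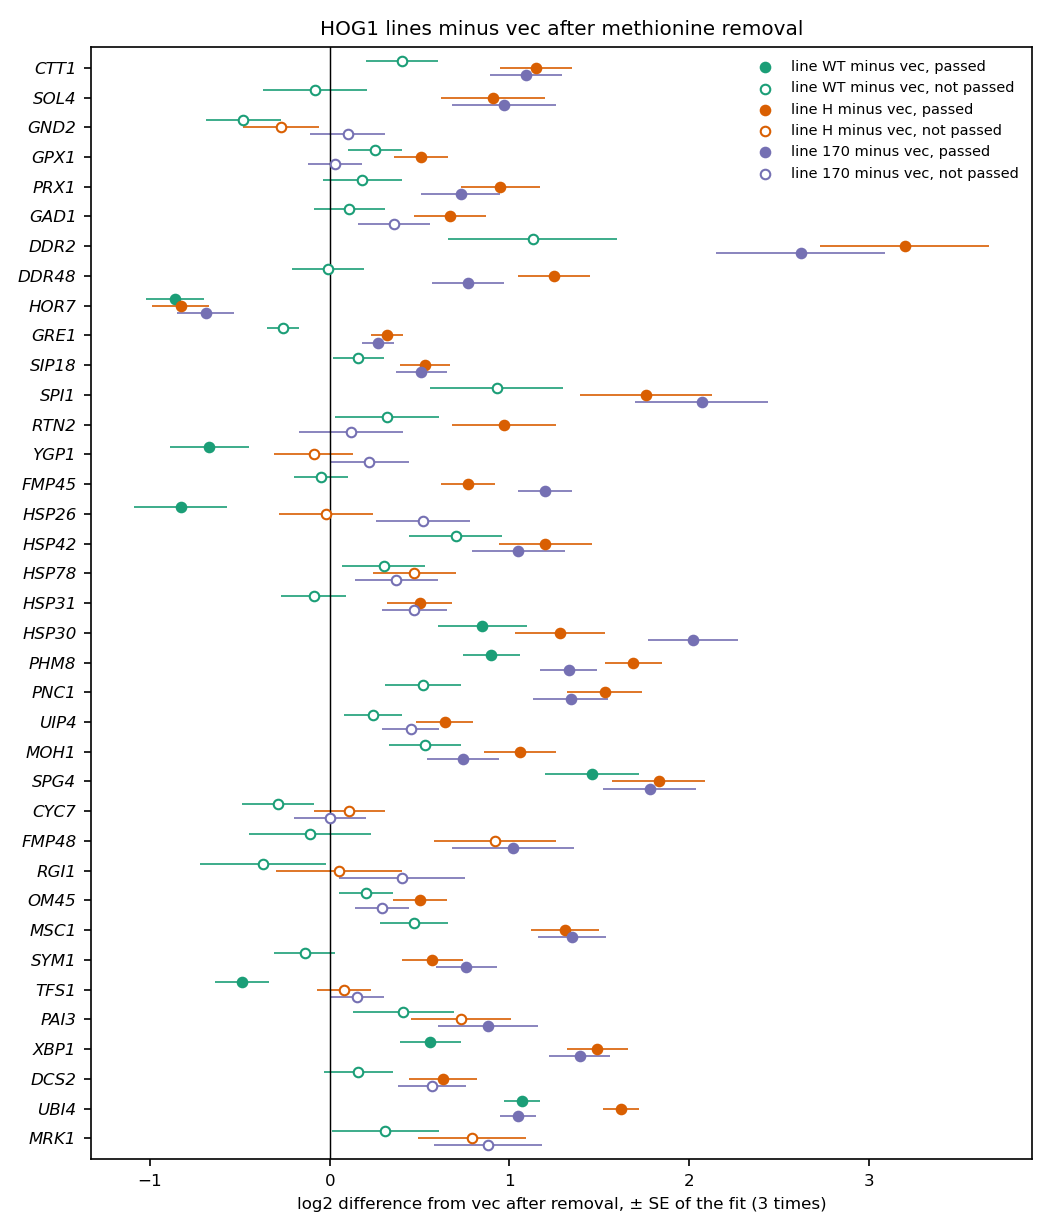
Points give the log2 difference of lines WT, H and 170 from vec after methionine removal for each of the 37 genes, from the fit over 3 times; bars are ± 1 SE of the fit, filled points passed the test and open points did not. DDR2 lies furthest right in lines H and 170, and HOR7 lies left of 0 in all 3 HOG1 lines.

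Lines H and 170 did not overlap vec for 21 and 22 of the members over the 3 later times (22.1% and 15.5% of all genes), and line WT for 8 (18.5%). By pattern, 14 members were higher than vec in lines H and 170 and not called in WT, 5 in all 3 lines, 7 in line H alone, 2 in line 170 alone and 9 in no line. A call in 1 line and not in another is no test of their difference. All comparisons with vec share the 3 later vec arrays. Without the 90 min arrays the members called higher numbered 1 in line WT, 13 in line H and 9 in line 170, all of them among those of the full fit. Over all genes 1.96%, 12.8% and 5.08% were higher without 90 min. Without 45 min the 4 lower members in line WT came to 1, HOR7, and to 1 without 90 min, HSP26. Under median scaling, normexp correction or quantile normalization 5, 5 and 4 members were higher in line WT, and 5, 5 and 5 lower.

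Among the hydrophilins and surface proteins, 7 of 9 were higher in line H, 6 in line 170 and 0 in line WT. DDR2 stood at 0.08, -0.95 and 1.01 at 45, 90 and 150 min in line H, at 0.45, -0.81 and -1.26 in line 170 and at -1.30, -2.48 and -2.30 in line WT, against -3.29, -3.18 and -2.99 in vec. None of the 3 HOG1 lines overlapped vec. The difference was 3.20 ± 0.47 in line H (9.21-fold, adjusted p = 0.00068), 2.62 ± 0.47 in line 170 (6.13-fold, adjusted p = 0.0034) and 1.13 ± 0.47 in line WT (adjusted p = 0.10).

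SPI1 stood at 0.22, -0.38 and -0.28 in line H, at 0.32, 0.24 and -0.06 in line 170 and at -0.45, -1.19 and -1.28 in line WT, against -0.37, -2.48 and -2.85 in vec. Line WT lay beside vec at 45 min, and all 3 HOG1 lines lay above vec at 90 and 150 min. SPI1 minus vec was 1.76 ± 0.37 in line H (adjusted p = 0.0041) and 2.07 ± 0.37 in line 170 (adjusted p = 0.0031); both calls were lost without 90 min and without 150 min, and WT minus vec was 0.93 ± 0.37 (adjusted p = 0.087). FMP45 (0.77 in line H, 1.20 in line 170), DDR48 (1.25 and 0.77), SIP18 (0.53 and 0.51) and GRE1 (0.32 and 0.27) were higher in both lines, and RTN2 in line H (0.97).

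HOR7 went the other way from its paralog DDR2. It stood at 2.34, 1.28 and 1.38 in line WT, at 2.13, 1.26 and 1.71 in line H and at 2.33, 1.74 and 1.45 in line 170, against 2.90, 2.04 and 2.63 in vec. At each later time all 3 HOG1 lines lay below vec, by -0.86 ± 0.16 in line WT (adjusted p = 0.0062), -0.83 ± 0.16 in line H (adjusted p = 0.0032) and -0.69 ± 0.16 in line 170 (adjusted p = 0.013). At 0 min the 4 arrays lay between 3.97 and 4.10. The call was lost in line WT without 90 min and in line 170 without 90 min, without 150 min and with the lines of its own slide only. In line WT YGP1 (-0.67 ± 0.22, adjusted p = 0.049) was lower as well, a call lost in 7 of 13 alternatives, without any 1 of the 3 times among them, and it stood at -0.09 ± 0.22 in line H and 0.22 ± 0.22 in line 170. How far DDR2 and HOR7 probes read each other's RNA was not tested.

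Of the 5 chaperone genes 3 were higher in line H, 2 in line 170 and 1 in line WT. HSP30 was higher in all 3: it stood at -1.40, -1.56 and -1.56 in line WT, at -0.89, -1.10 and -1.25 in line H and at 0.11, -0.26 and -0.88 in line 170, against -2.83, -1.86 and -2.39 in vec. The differences were 0.85 ± 0.25 (adjusted p = 0.035), 1.28 ± 0.25 (adjusted p = 0.0032) and 2.02 ± 0.25 (adjusted p = 0.00058), and in line WT the call was lost without any 1 of the 3 times. HSP42 was higher in lines H and 170 (1.20 and 1.05), and HSP31 in line H (0.50).

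HSP26 was lower in line WT than in vec, by -0.83 ± 0.26 (adjusted p = 0.040), a call lost without 45 min and without 150 min. Its values were -1.62, -1.70 and -1.37 in line WT, -0.93, -1.03 and -0.29 in line H and -0.07, -0.33 and -0.25 in line 170, against -0.29, -1.65 and -0.26 in vec. The vec array at 90 min lay apart from the other vec arrays after removal, and HSP26 did not pass in lines H (-0.02 ± 0.26) and 170 (0.52 ± 0.26). HSP78 passed in no line, with differences of 0.30 ± 0.23 in WT, 0.47 ± 0.23 in H and 0.37 ± 0.23 in 170.

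**Figure D4:**
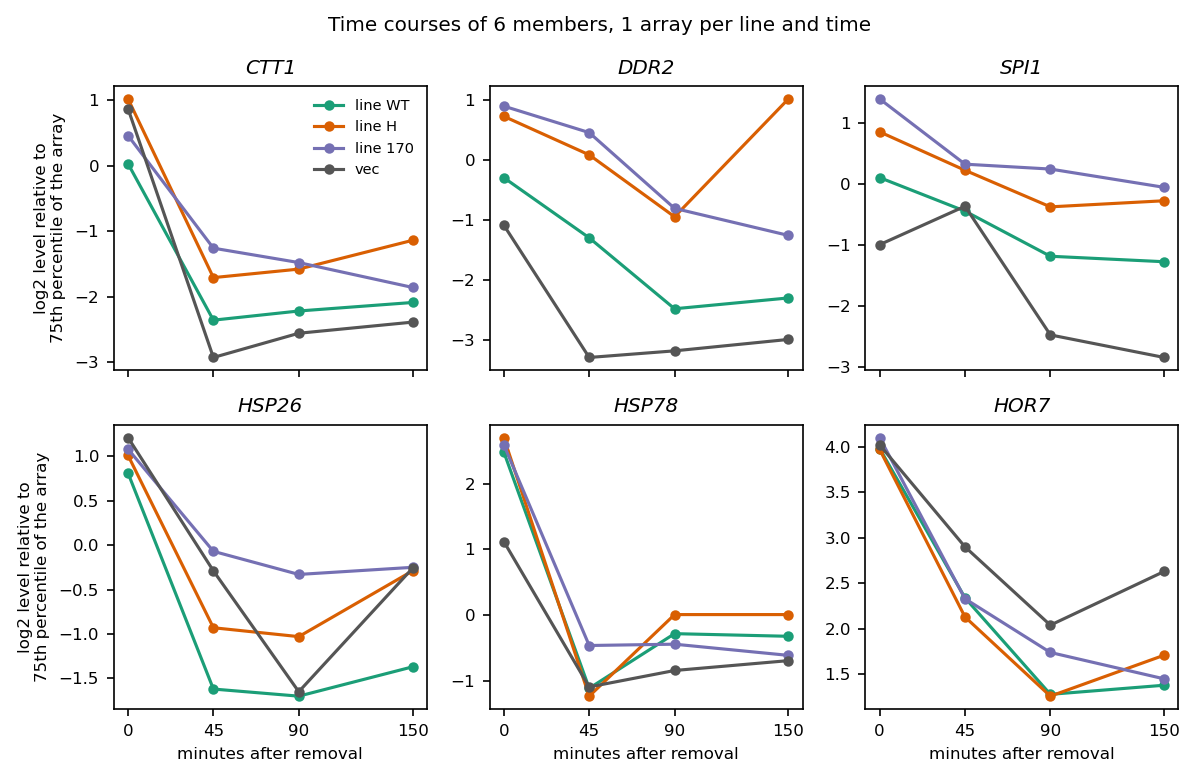
Log2 level relative to the array's 75th percentile (vertical axis, own scale per panel) against minutes after removal for CTT1, DDR2, SPI1, HSP26, HSP78 and HOR7, 1 point per array and 1 colour per line. CTT1 and DDR2 lie above vec at the 3 later times in all HOG1 lines, HSP78 starts above vec and ends near it, and HOR7 starts level with vec and ends below it.

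Of the redox genes 5 of 6 were higher in line H, 3 in line 170 and 0 in line WT. CTT1 stood at -1.71, -1.58 and -1.14 in line H, at -1.26, -1.48 and -1.86 in line 170 and at -2.36, -2.22 and -2.09 in line WT, against -2.93, -2.56 and -2.39 in vec. All 9 arrays of the HOG1 lines lay above all 3 of vec. The difference was 1.15 ± 0.20 in line H (2.21-fold, adjusted p = 0.0016) and 1.09 ± 0.20 in line 170 (2.13-fold, adjusted p = 0.0035, lost without 90 min), and 0.40 ± 0.20 in line WT did not pass (adjusted p = 0.16). SOL4 (0.91 and 0.97) and PRX1 (0.95 and 0.73) were higher in lines H and 170, GAD1 (0.67) and GPX1 (0.51) in line H, and GND2 in no line.

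All 5 genes of nucleotide and NAD metabolism or of little known function were higher in line H, 4 in line 170 and 2 in line WT. SPG4, needed for survival of stationary cells at high temperature, stood at -1.58, -3.36 and -3.86 in line WT, at -1.50, -3.42 and -2.78 in line H and at -1.62, -2.94 and -3.27 in line 170, against -3.82, -4.57 and -4.79 in vec. It was higher by 1.46 ± 0.26 in line WT (adjusted p = 0.0044, lost without 90 min), 1.83 ± 0.26 in line H (adjusted p = 0.00057) and 1.78 ± 0.26 in line 170 (adjusted p = 0.0012). PHM8 was higher by 0.90 ± 0.16 in line WT (adjusted p = 0.0039, lost without 90 min), 1.69 ± 0.16 in line H (adjusted p = 7.0e-05) and 1.33 ± 0.16 in line 170 (adjusted p = 0.00042). PNC1 (1.53 and 1.34) and MOH1 (1.06 and 0.74) were higher in lines H and 170, and UIP4 (0.64) in line H.

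Of the genes of protein turnover and signalling, 3 of 6 were higher in line H, 3 in line 170 and 2 in line WT. UBI4 stood at 2.13, 1.34 and 1.41 in line WT, at 2.50, 2.05 and 1.98 in line H and at 1.98, 1.51 and 1.31 in line 170, against 0.82, 0.34 and 0.51 in vec. The differences were 1.07 ± 0.10 (adjusted p = 0.00045), 1.62 ± 0.10 (adjusted p = 1.4e-05) and 1.05 ± 0.10 (adjusted p = 0.00018). All 3 HOG1 lines lay above vec on every later array. UBI4 shares its ubiquitin sequence with RPL40A, RPL40B and RPS31, and cross-hybridisation was not tested. XBP1 was higher by 0.56 ± 0.17 in line WT (adjusted p = 0.035, lost without 90 min and without 150 min), 1.49 ± 0.17 in line H and 1.39 ± 0.17 in line 170. DCS2 was higher in line H (0.63) and PAI3 in line 170 (0.88), while MRK1 passed in no line. TFS1, an inhibitor of carboxypeptidase Y, was lower in line WT (-0.49 ± 0.15, adjusted p = 0.035, lost without 45 min and without 90 min).

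Of the 6 mitochondrial genes 3 were higher in line H, 3 in line 170 and 0 in line WT. MSC1 stood at -0.02, -0.42 and 0.08 in line H and at 0.37, -0.17 and -0.44 in line 170, against -0.76, -1.95 and -1.59 in vec, higher by 1.31 ± 0.19 (adjusted p = 0.00060) and 1.35 ± 0.19 (adjusted p = 0.00095). No array of either line overlapped vec. SYM1, an inner membrane protein gene, was higher in both lines (0.57 and 0.76), OM45, an outer membrane protein gene, in line H (0.50) and FMP48 in line 170 (1.02). CYC7 and RGI1, among the largest falls after removal, passed against vec in no line: RGI1 minus vec was 0.05 ± 0.35 in line H and 0.40 ± 0.35 in line 170, and CYC7 minus vec was 0.11 ± 0.20 and 0.00 ± 0.20.

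Much of the lead of the HOG1 lines was there before methionine was removed. These 0 min differences rest on 1 array per line and are given without a test. Over the 37 genes the median difference from vec at 0 min was 0.54 in line WT, 0.59 in line H and 0.82 in line 170, with 23, 26 and 26 genes above vec; over all genes the medians were 0.04, 0.02 and -0.05. Of the 26 members higher in line H after removal, 21 were above vec at 0 min and 9 at least as far above it as afterwards, with medians of 0.74 at 0 min and 1.01 after. Of the 21 in line 170, 15 were above vec at 0 min and 7 as far, with medians of 0.95 and 1.05. Of the 5 in line WT, 5 were above vec at 0 min and 4 as far, with medians of 1.25 and 0.90.

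**Figure D5:**
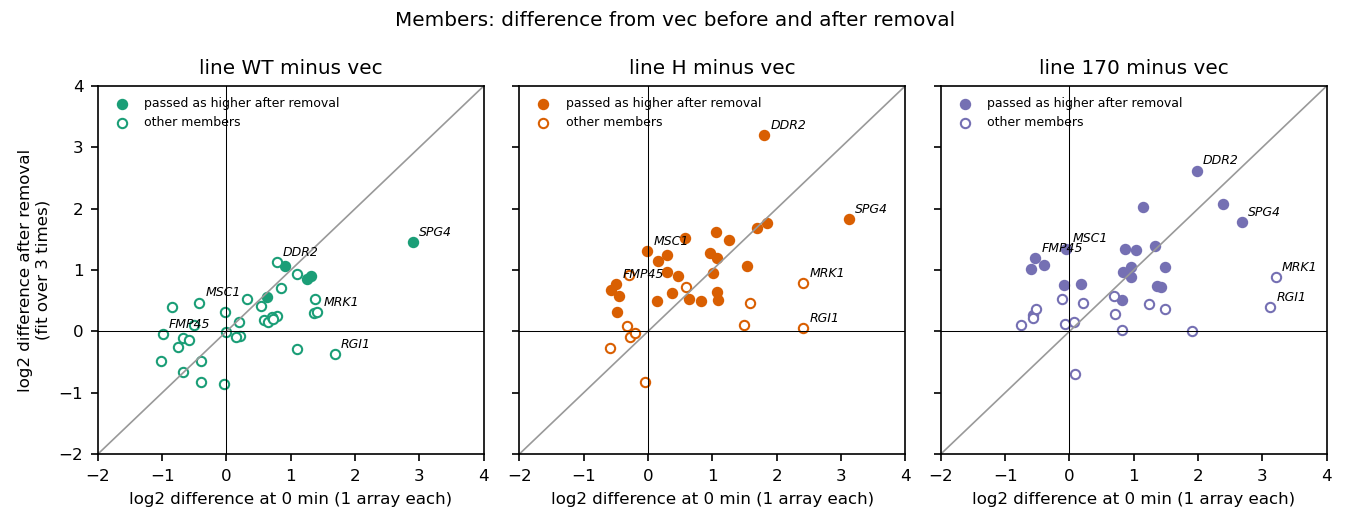
Each point is 1 of the 37 genes, placed by its log2 difference from vec at 0 min (horizontal, 1 array per line) and after removal (vertical, fit over 3 times), in panels for lines WT, H and 170; the diagonal marks equal differences and filled points passed as higher after removal. Points such as SPG4, RGI1 and MRK1 lie below the diagonal in all panels, and MSC1 and FMP45 lie above it.

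SPG4 stood at 0 min at -0.48, -0.26 and -0.70 in lines WT, H and 170, against -3.38 in vec, differences of 2.90, 3.12 and 2.68. UBI4 was above vec at 0 min by 0.91, 1.06 and 0.96. DDR2 was above vec at 0 min by 0.78, 1.81 and 1.98, and at 45 min by 1.99, 3.38 and 3.74. CTT1 minus vec was -0.84, 0.15 and -0.40 at 0 min and 0.57, 1.21 and 1.67 at 45 min.

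The part of the change that a HOG1 line did not share with vec was tested as the change from 0 min in that line minus the same change in vec, a fit in which each line has 1 array at 0 min. By this test line H held 3 members up more than vec and dropped 2 further, with a median of 0.23 against 0.04 over all genes (11.6% of all genes were higher and 6.80% lower). Line 170 held 4 up and dropped 3 further, with a median of 0.09 against 0.06 (13.6% and 7.43%). In line WT 0 members were higher and 0 lower, with a median of -0.14 against 0.01 (5.66% and 2.64%; 4 members were higher and 5 lower at an unadjusted p under 0.05). In all 3 lines the share of members called higher lay below that of all genes.

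The genes held up were FMP45, MSC1 and GRE1 in both lines and CTT1 in line 170. FMP45 stood at -5.17 in line H and -5.22 in line 170 at 0 min, against -4.68 in vec. Over the later times it stood at -3.93, -5.14 and -4.88 in line H and at -3.89, -4.50 and -4.27 in line 170, against -5.21, -5.67 and -5.38 in vec. Its change from 0 min thus ran upward in lines H and 170 and downward in vec, a difference of 1.26 ± 0.30 in line H (adjusted p = 0.023) and of 1.73 ± 0.30 in line 170 (adjusted p = 0.0062). MSC1 changed by 0.79 and 0.87, against -0.53 in vec, a difference of 1.32 ± 0.38 (adjusted p = 0.043) and of 1.41 ± 0.38 (adjusted p = 0.031). FMP45 and MSC1 thus ended above their own 0 min level in lines H and 170, while GRE1, at 0.79 ± 0.18 (adjusted p = 0.019) and 0.84 ± 0.18 (adjusted p = 0.013), ended below it in all lines. CTT1 changed by -1.99 in line 170, against -3.49 in vec, a difference of 1.50 ± 0.40 (adjusted p = 0.029).

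The genes that dropped further were RGI1, CYC7 and, in line 170, MRK1, a kinase gene of the GSK-3 family. RGI1 stood at 2.89 in line H and 3.60 in line 170 at 0 min, against 0.48 in vec, and ran from -2.39 to -0.56 on the later arrays of these 3 lines. Its change differed from that in vec by -2.36 ± 0.71 in line H (adjusted p = 0.049) and -2.72 ± 0.71 in line 170 (adjusted p = 0.027). CYC7 did so by -1.39 ± 0.40 (adjusted p = 0.045) and -1.91 ± 0.40 (adjusted p = 0.013). MRK1 stood at -1.07 in line 170 at 0 min, against -4.28 in vec, and its change differed by -2.33 ± 0.60 (adjusted p = 0.026). DDR2, HSP26, HSP78, SPI1 and SPG4 passed this test in no line.

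Without 90 min none of these calls in lines H and 170 passed, without 150 min 0 members were higher in line H and 7 in line 170, and without 45 min 7 were higher in line H. Over all genes 0.0973% and 0.876% were higher in lines H and 170 without 90 min, and 4.74% and 8.11% without 150 min. In line H without 45 min 18.9% of all genes were higher. With vec and line 170 alone, the lines of 1 slide, FMP45 kept its call and the other 6 members lost theirs. Under quantile normalization 1 member was higher and 5 lower in line H, and 3 and 6 in line 170, so the split of higher against lower calls depended on the scaling.

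Between the HOG1 lines themselves the general stress genes were higher in H and 170 than in WT. In H minus WT, on 1 slide, 10 members were higher and 0 lower (4.33% and 1.64% of all genes; limma, 23 and 0 members at an unadjusted p under 0.05), with a median of 0.57 against -0.03. In 170 minus WT, across slides, 13 were higher and 0 lower (6.80% and 10.9%; 21 and 0 unadjusted), with a median of 0.56 against -0.03. Over the 3 later times line H lay above WT with no overlap for 14 members (8.32% of all genes), and line 170 for 16 (7.83%). Part of this lead over WT was there at 0 min, on 1 array per line and without a test. The median difference from WT was then 0.27 in line H, with 33 members above WT and 4 below. In line 170 it was 0.28, with 30 above and 7 below. Over all genes these medians were -0.03 and -0.08. The change from 0 min was not tested against WT. DDR2 (2.07 ± 0.47, adjusted p = 0.040), DDR48 (1.26 ± 0.20, adjusted p = 0.019), PNC1 (1.01 ± 0.21, adjusted p = 0.030), XBP1 (0.93 ± 0.17, adjusted p = 0.022) and MSC1 (0.84 ± 0.19, adjusted p = 0.038) led in H minus WT. HSP26 (1.35 ± 0.26, adjusted p = 0.013), FMP45 (1.25 ± 0.15, adjusted p = 0.0035), HSP30 (1.16 ± 0.25, adjusted p = 0.020), SOL4 (1.04 ± 0.29, adjusted p = 0.041) and SYM1 (0.90 ± 0.17, adjusted p = 0.013) led in 170 minus WT, where CTT1 was higher too (0.69 ± 0.20, adjusted p = 0.044).

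The calls depended on the times in the fit. Without 90 min 0 members and 0 of all genes passed as higher in either comparison, with member medians of 0.58 and 0.51. Without 150 min 0 members passed in H minus WT and 1, SOL4, in 170 minus WT (0.0973% and 0.211% of all genes). Without 45 min 17 passed in H minus WT (8.91% of all genes), all 10 of the full fit among them. In 170 minus WT 9 of the 13 kept their call without 45 min. CTT1 in 170 minus WT was lost without any 1 of the times, and DDR2 in H minus WT without 90 min, without 150 min and with the lines of 1 slide only.

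In H minus 170 only UBI4 passed (0.57 ± 0.10, adjusted p = 0.010), 1 member higher and 0 lower, against 9.34% and 6.85% of all genes (limma, 5 and 2 members at an unadjusted p under 0.05). It was lost without 90 min and without 150 min (0.0162% and 0.0324% of all genes higher), and 3 members passed as higher without 45 min (8.92%). Line H lay above 170 with no overlap for 1 member, GPX1 (11.4% of all genes). The order of these 2 lines changed with time in the values. Line 170 was the highest of the 4 lines for 24 of the 37 genes at 45 min and for 24 at 90 min (17.5% and 22.1% of all genes). At 150 min line H was the highest for 29 (30.5% of all genes). DDR2 is an example, at 0.08 in line H and 0.45 in line 170 at 45 min, and at 1.01 in line H and -1.26 in line 170 at 150 min. The vec line was the lowest for 23 genes at 45 min and for 24 at 90 and at 150 min, and for 23 at 0 min. Over all genes vec was the lowest for 38.5% at 0 min and for 32.7% at 150 min, with the shares at 45 and 90 min between these.

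The 2 factors were measured as well. MSN2 did not pass after removal (0.18 ± 0.11, adjusted p = 0.14), and it was higher than vec in line H (0.81 ± 0.16, adjusted p = 0.0033) and line 170 (0.68 ± 0.16, adjusted p = 0.013) but not past the test in line WT (0.42 ± 0.16, adjusted p = 0.082). MSN4 fell after removal by 1.16 ± 0.12 on the log2 scale (adjusted p = 2.7e-06), with 0 min levels of -0.05, 0.49 and 0.02 in lines WT, H and 170, against -0.93 in vec. It was higher than vec afterwards by 0.65 ± 0.19 in line WT (adjusted p = 0.034), 1.45 ± 0.19 in line H (adjusted p = 0.00040) and 0.91 ± 0.19 in line 170 (adjusted p = 0.0072). The change of MSN4 from 0 min minus that in vec was -0.23 ± 0.39, 0.04 ± 0.39 and -0.03 ± 0.39, none past the test, and for MSN2 it was 0.15 ± 0.33, 0.32 ± 0.33 and 0.34 ± 0.33. H minus WT was 0.39 ± 0.16 for MSN2, which did not pass, and 0.80 ± 0.19 for MSN4 (adjusted p = 0.048), and neither factor passed in 170 minus WT or H minus 170.

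Among 32 regulators of Msn2 and Msn4 and other stress factors, 4 rose and 19 fell after removal (34.8% and 44.3% of all genes), with a median of -0.51. HOG1 itself is counted in this list and is 1 of the 4 that rose (2.90). Its rise and its difference from vec were set by the introduced gene and its promoter. Among those that fell was YAK1 (-1.61), a kinase gene that opposes protein kinase A. The 10 growth genes listed, ribosomal protein genes and ribosome assembly genes that protein kinase A favours, all rose (34.8% of all genes), with a median of 2.17. In H minus vec 10 regulators were higher and 5 lower, in 170 minus vec 7 and 3, and in WT minus vec 9 and 2; over all genes 25.1% and 24.5%, 16.1% and 16.2%, and 17.0% and 12.6% were higher and lower. RAS1, a GTPase gene upstream of protein kinase A, was lower than in vec in all 3 HOG1 lines, by -0.32 in WT, -0.74 in H and -0.58 in 170, and RIM15, a kinase gene of stationary phase entry, was higher by 0.63, 0.98 and 0.38.

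A further 22 genes with stress elements that are not among the 37 (trehalose, glycogen and aldehyde genes among them) were counted beside them. After removal 1 rose and 17 fell (34.8% and 44.3% of all genes), with a median of -1.41. In lines WT, H and 170, 3, 12 and 9 were higher than vec (17.0%, 25.1% and 16.1% of all genes). From 45 to 150 min 12 of the 22 were higher and 1 lower (23.7% and 19.7% of all genes), with a median of 0.59. The 1 that rose in the fit over the 4 lines was HSP12, a membrane-stabilising protein gene (1.78 ± 0.50, adjusted p = 0.0055). In vec HSP12 went from -1.30 at 0 min to 0.57, -2.37 and -1.88. Its difference was 3.36 ± 0.59 in H minus vec (adjusted p = 0.0017) and 3.55 ± 0.59 in 170 minus vec (adjusted p = 0.0023). ALD3, an aldehyde dehydrogenase gene, was higher than vec by 2.63 ± 0.27 in line H and 2.42 ± 0.27 in line 170, and its change from 0 min was higher than that in vec in line H (2.29 ± 0.54, adjusted p = 0.022) and line 170 (1.92 ± 0.54, adjusted p = 0.036).

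The 10 osmostress genes under Hot1 and Sko1, other factors of the Hog1 pathway, went another way in the fit over the 4 lines. There 6 were higher and 1 lower after removal (34.8% and 44.3% of all genes), with a median of 1.08. That fit averages lines that did not move alike. In vec GPD1 went from 0.63 to -1.24, 0.07 and 0.41, and RTC3 from -1.74 to -4.78, -4.03 and -3.85, while GPP1, ENA1 and AHP1 rose there too. The medians of the 10 over vec were 1.42 in line WT, 2.63 in line H and 2.51 in line 170. A higher change from 0 min than in vec was called for 0, 3 and 4 of the 10 in lines WT, H and 170. Over all genes 5.66%, 11.6% and 13.6% were higher by that test. Of 15 chaperone genes under Hsf1, 7 rose and 1 fell after removal, beside 34.8% and 44.3% of all genes. In lines WT, H and 170, 3, 3 and 4 of them were higher than vec, beside 17.0%, 25.1% and 16.1% of all genes. PDE2 stands in both the regulator and the osmostress list. These lists describe other groups beside the 37 genes, and no difference between lists was tested.

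The position of the genes was read only as neighbourhood in the RefSeq gene table. Of the 37 genes, 7 lie on chromosome XIII, where DDR48, PAI3 and SIP18 stand next to each other and GTO3 alone lies between GAD1 and HOR7. DDR48 and SIP18 were higher in lines H and 170, PAI3 in line 170 only, and GAD1 (0.67 in line H) and HOR7 (-0.83 in line H) differed from vec in opposite directions. Their promoter sequences were not used here.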

How the data were processed

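Per the labels' protocols, total RNA was labelled with Cy3 by the Agilent procedure. Per the file headers, Feature Extraction 10.7.1.1 gave a processed intensity per spot, background subtracted and not scaled between arrays. The deposited table of log2 values, each probe centred within its slide, served as an alternative. The signal at the 75th percentile ran from 4930 to 11304 units per array, and 93.4% to 98.8% of spots were well above background; having only 16 arrays limits how precise any value is.

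Here log2 intensities were averaged over 2 spots per probe, the array's 75th percentile was subtracted, and probes well above background on at least 3 arrays were kept (6165 of 6227 genes; the brightest probe for 28 genes with several). Of the systematic names, 5738 matched the RefSeq table, which is of another assembly than the headers' and served for names and neighbours. Fits used limma 3.58.1 in R 4.3.3 (lmFit, eBayes, two-sided) with Benjamini-Hochberg adjustment over all genes at 0.05: line and time on 16 arrays, line and time on the 12 later arrays, and time, line and line by later time on 16 arrays. The scripts were tested on simulated data.

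The members and lists were chosen with earlier results of these data known. Named throughout are CTT1, DDR2, HSP26, HSP78 and SPI1, and per comparison the 5 highest and 5 lowest members that passed, members against their role group, HOG1, MET3, MSN2, MSN4 and up to 4 genes per other list; other members are given by role with their estimates. RPL40A, RPL40B, RPS31 and GTO3 are named without values. Alternatives changed the background correction, scaling, filter, probes per gene, variance model, threshold, time term, source of values, and which lines, times or slide entered. A motif description that was planned was not run.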

Additional observations from a re-analysis of the deposited data

Results flagged for a closer look

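A direct test, the line by later time term of the limma fit, found 12 cases in which a general stress gene changed after methionine removal otherwise in a HOG1 line than in vec (adjusted p under 0.05; each contrast uses 1 array at 0 min per line). Over all genes 11.6% were higher and 6.80% lower by this test in line H, and 13.6% and 7.43% in line 170, so the members' shares lay near or below the background. In line H minus vec the values were 0.79 for GRE1, 1.32 for MSC1, 1.26 for FMP45, -1.39 for CYC7 and -2.36 for RGI1. In line 170 minus vec they were 1.50 for CTT1, 0.84 for GRE1, 1.41 for MSC1, 1.73 for FMP45, -1.91 for CYC7, -2.72 for RGI1 and -2.33 for MRK1. Lines H and vec lie on different slides, and lines 170 and vec on the same slide. At 0 min RGI1 stood at 2.89 in line H and 3.60 in line 170, against 0.48 in vec, and CYC7 at 2.39 and 2.80, against 0.89 in vec. The tested change contains these 0 min levels, 1 array each, so the higher start and the larger fall are not separate observations.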

How the results depend on the processing

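No paired analysis by replicate number was possible because each line and time has 1 array; the time term matched the lines by time. No result reversed. The 33 members lower after removal stayed between 27 and 34 under all alternatives run. Higher members in 150 minus 45 min numbered 15 on the slide of WT and H, 0 on that of vec and 170 and 1 at a 2-fold minimum (26.0%, 0% and 3.18% of all genes). With no time term the counts of higher members were 1, 14 and 9 for WT, H and 170 minus vec and 0, 0 and 0 for H minus WT, 170 minus WT and H minus 170, in the same order 1, 13, 9, 0, 0 and 0 without 90 min, 3, 16, 12, 0, 2 and 0 at an adjusted p under 0.01, and 2, 13, 13, 3, 4 and 0 at a 2-fold minimum. In that order 5.58%, 15.2%, 7.51%, 0.308%, 0.211% and 0.941% of all genes were higher with no time term. At an adjusted p under 0.01 the shares were 7.90%, 17.9%, 9.64%, 0.0162%, 0.714% and 1.93%. At a 2-fold minimum they were 2.51%, 7.17%, 4.14%, 1.12%, 0.779% and 0.470%. Without 150 min they were 0 for H minus WT, 1 for 170 minus WT and 0 for H minus 170, and without 45 min 17 for H minus WT and 3 for H minus 170. Over all genes H minus WT, 170 minus WT and H minus 170 had 0%, 0% and 0.0162% higher without 90 min. Without 150 min these shares were 0.0973%, 0.211% and 0.0324%. For the change from 0 min against vec, 1 member passed as higher in line WT without 45 min (9.75% of all genes). In line H the count was 1 under quantile normalization, 7 without 45 min, 0 without 90 min, 0 without 150 min and 0 at 0.01. Over all genes 13.1%, 18.9%, 0.0973%, 4.74% and 2.90% were higher there. In line 170 the count was 0 without 90 min, 7 without 150 min, 1 with the lines of 1 slide only and 1 at 0.01. Over all genes 0.876%, 8.11%, 1.12% and 5.30% were higher in line 170. The cause was not tested, beyond fewer arrays, genes or a stricter threshold by construction. Of 1437 alternatives of 103 named results, 1245 kept their side of the threshold, 168 lost a call and 24 gained one, all with the direction kept where a call was made. Limits are the single culture per line and time, slides that hold 2 lines each, and time that goes with the position of an array on its slide.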
